A study of Mus musculus with 8 samples.

Results

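Acid-base exchangers and carbonic anhydrases were examined in sorted mouse distal convoluted tubules (DCT) with and without TBC1D4. The members were all genes of the Slc4, Slc9 and Slc26 exchanger families and of the carbonic anhydrase (Car) family whose probe set carries exactly 1 gene symbol, taken by symbol alone, without Slc4a1, Slc4a4, Slc4a9 and Slc26a4. They numbered 35 of 18782 genes: 6 of Slc4, 7 of Slc9, 8 of Slc26 and 14 of Car. Each was read by 1 probe set, and intensities are given on the log2 scale. Car14, Car5a, Slc26a1 and Slc26a10 shared their probe sets with other genes and were not analysed here.

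The study compared TBC1D4-deficient mice (4 arrays) with TBC1D4 wild-type mice (4 arrays), asking what changes in the DCT when TBC1D4, a regulator of Rab proteins and of glucose transporter traffic, is missing. All were male, aged 8 weeks and of the C57/Bl6 strain, and both genotypes carried 1 copy of an EGFP transgene driven by the parvalbumin promoter, which is active in the early DCT, so cells without parvalbumin were not selected for. Fluorescent tubules were collected by large-particle sorting (COPAS), and the RNA input of each labelling was 100 ng. Whether every sample stands for a separate mouse is not in the labels, and the spread on which the p-values rest may therefore be technical.

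Sodium-proton exchangers of the Slc9 family move protons out of the cell or into organelles. Slc4 and Slc26 proteins exchange or cotransport bicarbonate, chloride and other anions, and carbonic anhydrases interconvert carbon dioxide and bicarbonate and so supply both substrates. The proximal tubule reclaims most filtered bicarbonate with Slc9a3 and with cytosolic and membrane-bound carbonic anhydrases, intercalated cells of the collecting system secrete acid or base, and the DCT is known for an apical sodium-proton exchanger, Slc9a2.

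Tbc1d4 had log2 intensities of 2.48, 2.72, 2.50 and 2.21 in the TBC1D4-deficient arrays and 6.69, 6.79, 6.58 and 6.94 in the wild-type arrays, so every array matched its label. Its log2 difference was -4.27 (SE 0.11; limma, adjusted p = 6.35e-08; exact permutation p = 0.0286, the smallest possible with 4 arrays against 4). Slc12a3 and Pvalb, which define the early DCT, averaged 11.49 and 9.75 in the TBC1D4-deficient arrays and 11.49 and 9.68 in the wild-type arrays. Correlations between arrays were 0.993 to 0.997. Markers of the proximal tubule (19 of 20 listed genes measured) were the other-segment markers that varied most between arrays, with summed intensities of 1429.65 to 3706 in the TBC1D4-deficient arrays and 2027 to 4967 in the wild-type arrays. All 19 averaged lower in the TBC1D4-deficient arrays, with log2 differences of -0.55 to -0.12 (median -0.33). In limma 0 of the 19 had an unadjusted p below 0.05, and their median SD within genotypes was 0.67. Endothelial markers (13 of 13) summed to 129 to 175 in the TBC1D4-deficient arrays and 175 to 203 in the wild-type arrays, so that the genotypes barely overlapped. Only 2 of the 13 had a mean log2 intensity of 4 or more, and all 13 were lower in the TBC1D4-deficient arrays. Intercalated cell markers (14 of 15) summed to 1964 to 2083 in the TBC1D4-deficient arrays and 1935 to 2005 in the wild-type arrays. A linear sum mostly follows its brightest genes. Gene by gene, 10 of these 14 markers had a log2 difference below 0 and 4 above (-0.56 to 0.13, median -0.05). Their mean, with each gene centred over 8 arrays, spanned -0.19 to 0.17 without TBC1D4, against -0.07 to 0.22 with it. Thick ascending limb markers (9 of 9) summed to 2384 to 2620 in the TBC1D4-deficient and 2509 to 2891 in the wild-type arrays. Connecting tubule and principal cell markers (9 of 10) summed to 560 to 714 in the TBC1D4-deficient and 658 to 747 in the wild-type arrays. No marker was at 0, and no intensity in the table is. In RNA from sorted tubules, fewer cells of a type and less RNA per cell cannot be told apart.

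No exchanger or carbonic anhydrase passed the threshold by genotype. With limma and Benjamini-Hochberg adjustment over all 23039 probe sets, 0 of 35 had an adjusted p below 0.05, where 0.00434% of all probe sets (Tbc1d4 alone) did. At an unadjusted p below 0.05 there was 1 member, Car7, a share of 2.86% beside 2.9% of all probe sets. The genotypes overlapped in all 35 members, where 1.85% of all probe sets did not overlap. The members differed by -0.26 to 0.14 on the log2 scale, with 13 above and 22 below 0 and a median of -0.02, while 49.1% of all probe sets lay above 0 with a median of -0.0017. With the endothelial marker mean in the fit, the count above 0 was 23 (65.7%, beside 48.7% of all probe sets). That mean nearly separates the genotypes, so such a fit can hardly tell the 2 apart.

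The 95% interval of the genotype difference lay inside 1.5-fold for 33 of 35 members, a share of 94.3% beside 97.4% of all probe sets. The exceptions were Car2 and Car3, whose intervals reached -0.62 and -1.16. A total of 17 members had a mean log2 intensity of 4 or more and 18 were dimmer. Without detection calls, a dim value may be background, and the difference of a dim gene may be too small.

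**Figure D1:**
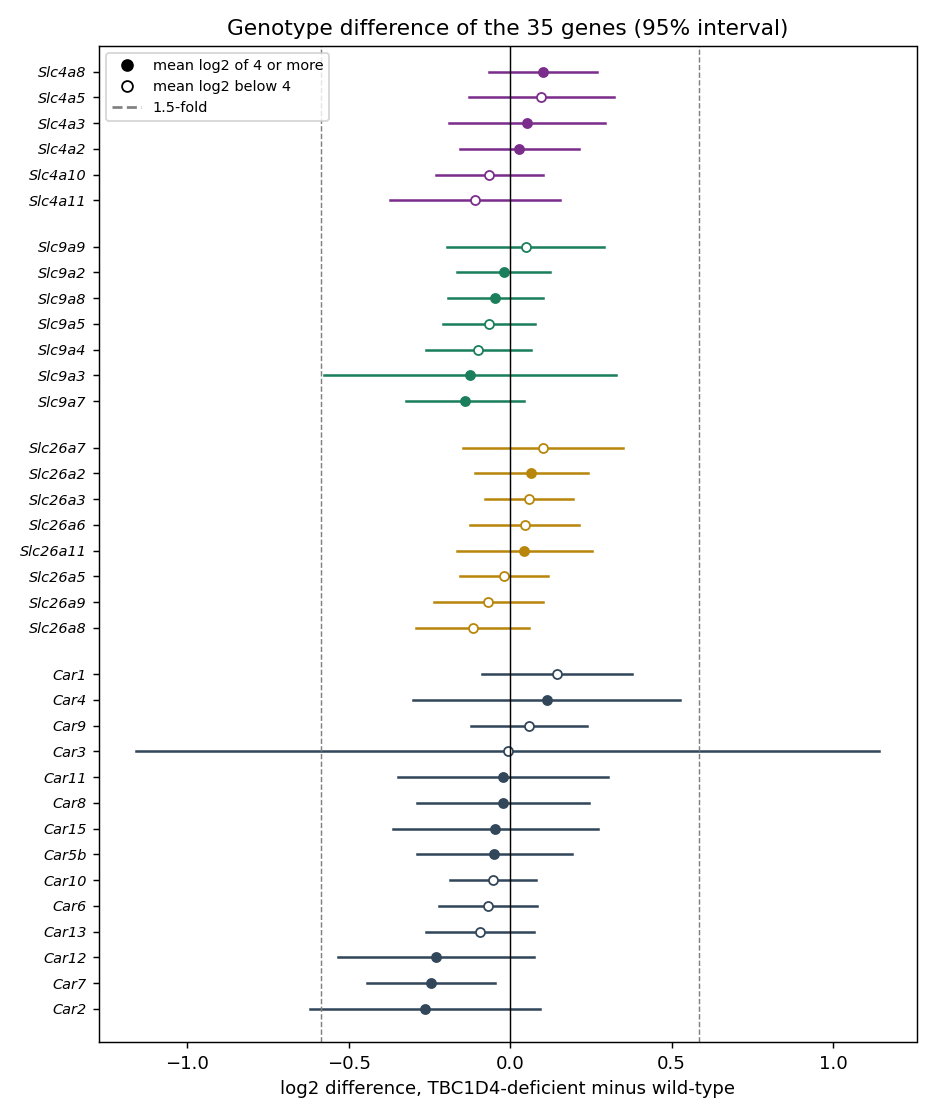
Log2 difference between TBC1D4-deficient and wild-type arrays (horizontal axis) of each of the 35 genes, grouped by family, with its 95% interval from limma; filled points have a mean log2 intensity of 4 or more, open points a lower one, and dashed lines mark 1.5-fold. All intervals but those of Car2 and Car3 lie between the dashed lines, and that of Car7 alone excludes 0.

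Among the sodium-proton exchangers, 1 of 7 lay above 0 and 6 below, and 0 passed. Slc9a2, the apical exchanger known in the DCT, had log2 intensities of 7.01, 7.14, 7.08 and 6.93 in the TBC1D4-deficient arrays (replicates 1 to 4, the order used throughout) and 7.09, 7.12, 7.03 and 7.00 in the wild-type arrays. The groups overlapped almost fully and no array stood apart. The log2 difference was -0.02 (95% interval -0.17 to 0.13; limma, adjusted p = 0.99991), and its SD within genotypes, 0.08, was below the median of 0.12 over all probe sets. Slc9a3, the main exchanger of bicarbonate reabsorption in the proximal tubule, had 4.82, 5.73, 5.69 and 5.36 in the TBC1D4-deficient arrays and 5.12, 5.53, 5.79 and 5.66 in the wild-type arrays. Replicate 1 was the lowest array of each genotype, the SD within genotypes was 0.36, and the difference was -0.13 (-0.58 to 0.33).

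Slc9a7, an exchanger of the trans-Golgi network, had the second smallest unadjusted p of the members by genotype (0.121). Its values were 5.49, 5.60, 5.36 and 5.22 in the TBC1D4-deficient arrays and 5.60, 5.52, 5.54 and 5.57 in the wild-type arrays. The wild-type arrays lay close together, and TBC1D4-deficient replicates 1, 3 and 4 lay below all of them, but replicate 2 did not, and the difference was -0.14 (-0.32 to 0.04). Slc9a8, an exchanger of Golgi and endosomes that also acts at the apical membrane, averaged 6.70 ± 0.08 in the TBC1D4-deficient arrays and 6.74 ± 0.07 in the wild-type arrays (SD, n = 4 each). Slc9a4, a basolateral exchanger of stomach and thick ascending limb, Slc9a5, mainly of brain, and Slc9a9, of recycling endosomes, were dim, with values of 1.16 to 3.15 over the 8 arrays and differences of -0.10, -0.07 and 0.05.

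Of the 6 Slc4 members, 4 lay above 0 and 2 below, and 0 passed. Slc4a2 (AE2), a widely expressed basolateral chloride-bicarbonate exchanger, had 7.18, 7.28, 7.11 and 7.04 in the TBC1D4-deficient arrays and 7.18, 6.93, 7.22 and 7.17 in the wild-type arrays. The groups overlapped, and the difference was 0.03 (95% interval -0.16 to 0.21). Slc4a3 (AE3), an exchanger best known from heart and brain, had 6.87, 7.07, 7.02 and 7.01 in the TBC1D4-deficient arrays and 7.18, 7.04, 6.93 and 6.62 in the wild-type arrays. All TBC1D4-deficient values lay within the wild-type range, which was set by replicates 1 and 4, and the difference was 0.05 (-0.19 to 0.29).

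The sodium-coupled bicarbonate transporters were Slc4a8, which acts in beta-intercalated cells and neurons, and the dim Slc4a5 and Slc4a10, best known from choroid plexus and brain. Slc4a8 averaged 5.06 ± 0.13 in the TBC1D4-deficient arrays and 4.96 ± 0.04 in the wild-type arrays (SD, n = 4 each), a difference of 0.10 (-0.06 to 0.27). Slc4a5 and Slc4a10 differed by 0.10 and -0.06. Slc4a11, which carries protons and water in corneal endothelium, was dim, with a difference of -0.11 (-0.37 to 0.15).

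The Slc26 anion transporters lay near 0 as well, with 5 of 8 above 0, 3 below, 0 past the threshold and differences of -0.12 to 0.10. Slc26a11, a sulfate and chloride carrier found in intercalated cells, had 4.33, 4.48, 4.22 and 4.09 in the TBC1D4-deficient arrays and 4.33, 4.17, 4.10 and 4.35 in the wild-type arrays, and the groups overlapped (difference 0.04, 95% interval -0.17 to 0.25). Slc26a2, a sulfate carrier, averaged 4.69 ± 0.12 in the TBC1D4-deficient arrays and 4.62 ± 0.09 in the wild-type arrays. These were the only Slc26 members with a mean of 4 or more.

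The other 6 Slc26 members were dim. Slc26a7, a basolateral chloride-bicarbonate exchanger of acid-secreting intercalated cells, had 2.07, 2.53, 2.14 and 2.10 in the TBC1D4-deficient arrays and 2.11, 1.95, 2.30 and 2.08 in the wild-type arrays. TBC1D4-deficient replicate 2 was the highest array, and the difference of 0.10 (-0.14 to 0.35) was -0.0028 without it. Slc26a6, a chloride-oxalate exchanger of the proximal tubule, had 2.73, 2.74, 2.48 and 2.66 in the TBC1D4-deficient arrays and 2.64, 2.48, 2.67 and 2.64 in the wild-type arrays, with overlap (difference 0.04). Slc26a8, which is needed for sperm motility, had 2.01, 1.87, 2.09 and 2.04 in the TBC1D4-deficient arrays and 2.30, 2.07, 2.02 and 2.07 in the wild-type arrays (difference -0.12, -0.29 to 0.06). Wild-type replicate 1 was the highest of these, and the rest overlapped. Slc26a3, the chloride-bicarbonate exchanger of colon, Slc26a5, the motor protein of outer hair cells, and Slc26a9, a chloride transporter of stomach and airway, differed by 0.06, -0.02 and -0.07.

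Carbonic anhydrases made up the members with the largest genotype differences, with 3 of 14 above 0 and 11 below, and 0 passed. Car7, a cytosolic enzyme best known from neurons, had 3.81, 3.98, 4.03 and 4.10 in the TBC1D4-deficient arrays and 4.33, 4.09, 4.36 and 4.12 in the wild-type arrays. Only TBC1D4-deficient replicate 4 reached into the wild-type range. The difference was -0.25 (SE 0.09, 95% interval -0.44 to -0.05; limma, unadjusted p = 0.0196, adjusted p = 0.99991). It was -0.16 among the arrays whose descriptions open with the numbers 5 to 8 and -0.33 among those numbered 9 to 12, numbers whose meaning the labels do not give.

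Car2, the fast cytosolic enzyme of proximal tubule and intercalated cells, had 6.28, 6.85, 6.56 and 6.82 in the TBC1D4-deficient arrays and 6.90, 6.48, 7.15 and 7.03 in the wild-type arrays. Car12, a transmembrane enzyme with an extracellular catalytic domain, had 6.69, 7.16, 6.85 and 7.05 in the TBC1D4-deficient arrays and 7.14, 6.84, 7.45 and 7.24 in the wild-type arrays. In both genes TBC1D4-deficient replicate 1 was the lowest and wild-type replicate 3 the highest array, and the genotypes overlapped. The differences were -0.26 (95% interval -0.62 to 0.09) for Car2 and -0.23 (-0.53 to 0.07) for Car12. With the endothelial marker mean, which nearly separates the genotypes, in the fit they were 0.14 and 0.09.

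Car4, a membrane-anchored enzyme of the apical and basolateral membranes of the proximal tubule, had 7.36, 7.51, 7.64 and 7.73 in the TBC1D4-deficient arrays and 6.86, 7.39, 7.68 and 7.85 in the wild-type arrays. Wild-type replicate 1 was low, and the difference of 0.11 (95% interval -0.30 to 0.53) was -0.08 without it. Car15, a membrane-anchored enzyme that is active in mouse kidney, had 6.88, 7.60, 7.52 and 7.27 in the TBC1D4-deficient arrays and 7.21, 7.43, 7.48 and 7.33 in the wild-type arrays. Here TBC1D4-deficient replicate 1 was low, and the difference of -0.05 (-0.36 to 0.27) was 0.10 without it. Car9, a transmembrane enzyme induced by hypoxia, was dim and differed by 0.06.

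Car5b, the mitochondrial enzyme, averaged 6.80 ± 0.13 in the TBC1D4-deficient arrays and 6.85 ± 0.21 in the wild-type arrays (SD, n = 4 each). Car1, an enzyme of red cells, was dim at 2.52, 2.42, 2.46 and 2.79 in the TBC1D4-deficient arrays and 2.29, 2.37, 2.66 and 2.31 in the wild-type arrays, the largest positive difference of the members (0.14, 95% interval -0.09 to 0.38). The groups overlapped through wild-type replicate 3. The 4 measured red cell markers all had a mean below 4, and their summed intensity was 16.98 to 20.03 in the TBC1D4-deficient arrays and 16.9 to 19.6 in the wild-type arrays. Car13, another cytosolic enzyme, and Car6, which is secreted into saliva, were dim and differed by -0.09 and -0.07.

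The carbonic anhydrase-related proteins Car8, Car10 and Car11 keep the fold of the family but lack catalytic activity. Their differences were -0.02, -0.05 and -0.02. Car11 had 4.56, 4.94, 4.60 and 4.35 in the TBC1D4-deficient arrays and 4.99, 4.65, 4.49 and 4.40 in the wild-type arrays, with full overlap and a high array in each genotype. Car8 averaged 4.56 ± 0.14 in the TBC1D4-deficient arrays and 4.58 ± 0.25 in the wild-type arrays, and Car10 was dim.

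**Figure D2:**
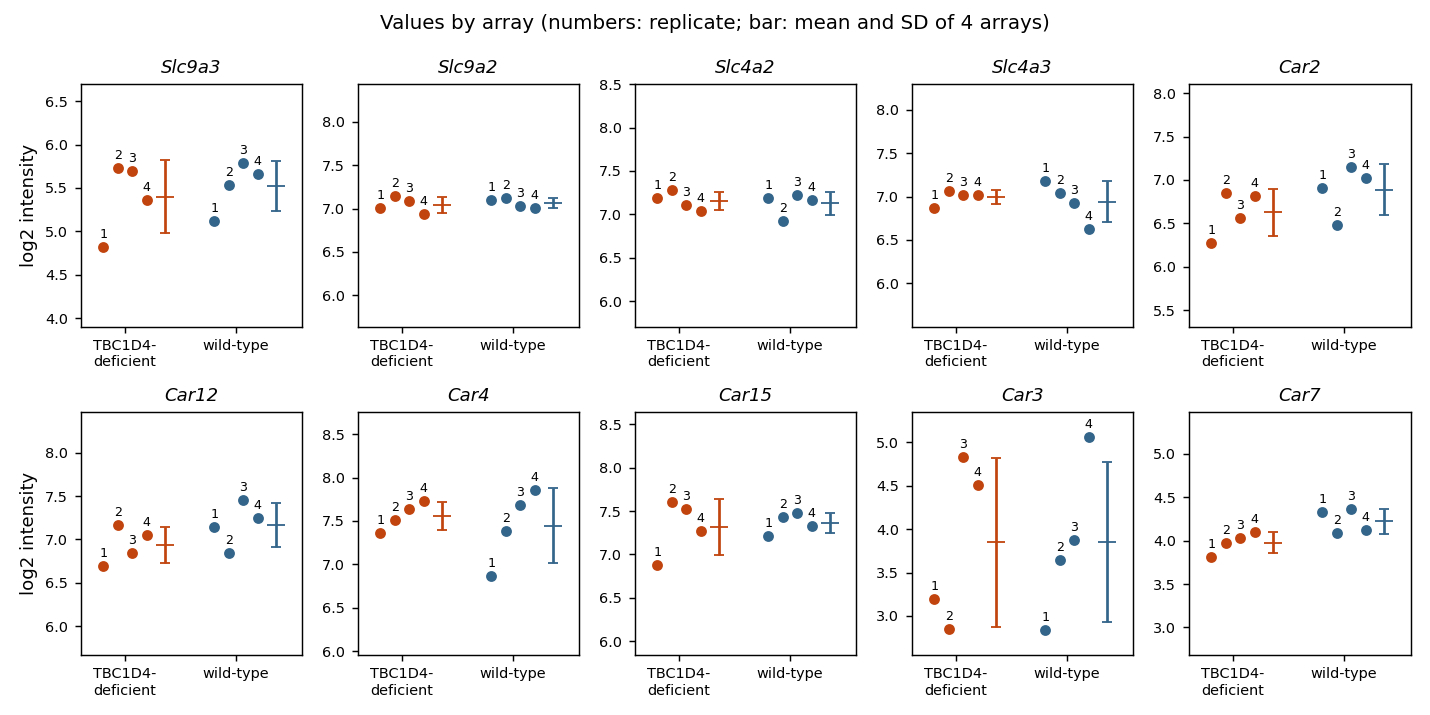
Log2 intensity (vertical axis, of the same height in every panel) of 10 members in the TBC1D4-deficient and wild-type arrays; numbers give the replicate and bars the mean and SD of 4 arrays. Slc9a2 and Slc4a2 are level across arrays, Slc9a3, Car2, Car12, Car4 and Car15 have 1 or more low arrays, and Car3 spans 2.23 log2 units.

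Car3 was the member that varied most. This cytosolic enzyme of low activity is abundant in muscle, liver and fat. It had 3.20, 2.85, 4.83 and 4.50 in the TBC1D4-deficient arrays and 2.84, 3.64, 3.87 and 5.07 in the wild-type arrays. TBC1D4-deficient replicate 2 and wild-type replicate 1 were the lowest arrays, and wild-type replicate 4 and TBC1D4-deficient replicate 3 the highest, so the spread lay within genotypes. The SD within genotypes was 0.95, and the genotype difference of -0.0073 (95% interval -1.16 to 1.14) leaves changes of more than 1.5-fold possible in either direction. It was 0.91 among the arrays numbered 5 to 8 and -0.93 among those numbered 9 to 12. Car3 lies next to Car1 and Car2 on chromosome 3, with no protein-coding gene between them in the RefSeq table, and neither neighbour had this order of arrays. Of 9 measured adipocyte genes, a list added after the values of Car3 were seen, 8 had a mean below 4, and Lpl (lipoprotein lipase) was the bright exception. Lpl had 9.39, 9.11, 9.42 and 9.27 in the TBC1D4-deficient arrays and 9.07, 9.53, 9.20 and 9.57 in the wild-type arrays. Its lowest arrays, wild-type replicate 1 and TBC1D4-deficient replicate 2, and its highest, wild-type replicate 4, were those of Car3. Plin1 (perilipin), which was dim, was likewise lowest in wild-type replicate 1, at 2.24, and highest in TBC1D4-deficient replicate 3, at 2.60. Adipoq (adiponectin), also dim, had 1.84 to 1.96 in the TBC1D4-deficient arrays and 1.87 to 2.09 in the wild-type arrays. It was highest in wild-type replicate 1, the lowest array of Car3, and so were the dim Fabp4 (2.98) and Pparg (2.08). The other listed genes, Cidec, Retn, Lep and Ucp1, were lowest neither in wild-type replicate 1 nor in TBC1D4-deficient replicate 2. The summed intensity of the list, most of it Lpl, was 591 to 723 in the TBC1D4-deficient arrays and 581 to 801 in the wild-type arrays. The part of fat cell RNA in the values of Car3 was not tested.

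The 17 members with a mean of 4 or more had a median SD within genotypes of 0.18, where all 10670 such probe sets had 0.11. Over all 35 members, those with the widest spread were Car3 (0.95), Slc9a3 (0.36), Car4 (0.33), Car2 (0.28), Car11 (0.25) and Car15 (0.24). By family the median SD was 0.19 for the carbonic anhydrases, 0.14 for Slc4, 0.11 for Slc26 and 0.10 for Slc9.

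**Figure D3:**
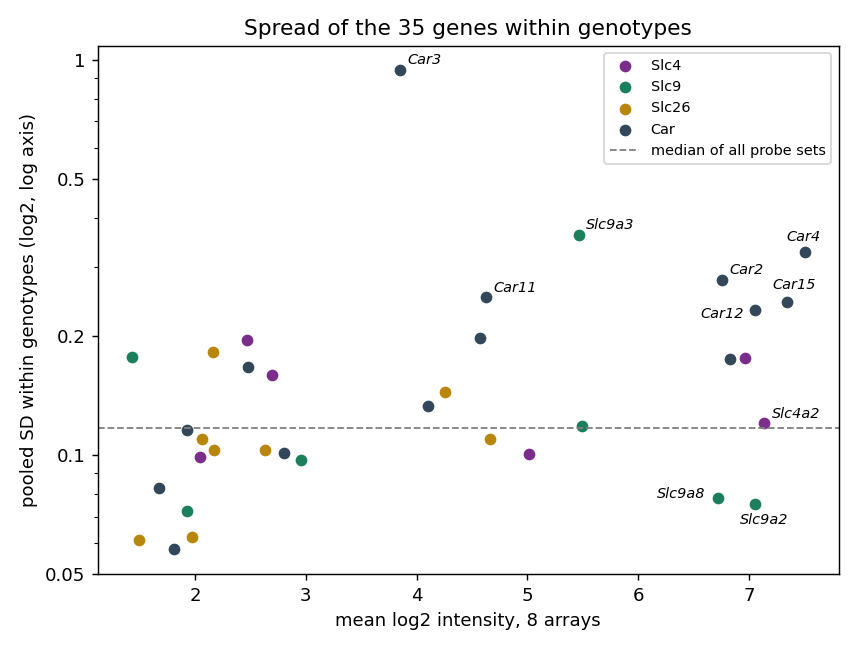
Pooled SD within genotypes (vertical log axis, log2 units) against the mean log2 intensity over 8 arrays (horizontal axis) for the 35 genes, coloured by family; the dashed line is the median SD of all probe sets. Car3, Slc9a3, Car4, Car2, Car11, Car15 and Car12 lie above 0.2, and Slc9a2 and Slc9a8 lie below the dashed line.

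Each member was also set against the proximal tubule RNA that the arrays carried, and 0 of 35 passed the threshold. A slope was fitted for every probe set on the mean of 19 proximal tubule markers per array, with genotype as a covariate. The marker mean was -1.06, 0.29, 0.04 and 0.07 in the TBC1D4-deficient arrays and -0.54, -0.32, 0.80 and 0.72 in the wild-type arrays, on a log2 scale centred on the 8 arrays. At an adjusted p below 0.05, 1.18% of all probe sets were called. At an unadjusted p below 0.05 there were 6 members (17.1%) beside 6.89% of all probe sets, and all 6 slopes were positive, as were those of 4.18% of all probe sets. These were Slc9a3, Car4, Car2, Car12, Car15 and Slc26a9.

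Slc9a3 had the steepest slope of these 6, 0.49 log2 units per unit of the marker mean (95% interval 0.27 to 0.71). It missed the threshold narrowly (limma, adjusted p = 0.0511). Over 21 alternatives its slope was 0.32 to 0.56 and its adjusted p 0.0146 to 0.799, past the threshold in 6. It was 0.56 without wild-type replicate 2 (adjusted p = 0.0146) and 0.35 without the 2 arrays farthest from the median, TBC1D4-deficient replicate 1 and wild-type replicate 3 (adjusted p = 0.655). With the marker mean in the fit, the genotype difference of Slc9a3 was 0.04.

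Car4 had a slope of 0.40 (95% interval 0.16 to 0.64; limma, adjusted p = 0.218), Car2 of 0.34 (0.13 to 0.55; adjusted p = 0.255) and Car12 of 0.29 (0.10 to 0.47; adjusted p = 0.306). Car4 stood lowest in wild-type replicate 1 and not in TBC1D4-deficient replicate 1, the array poorest in proximal tubule markers. The Car4 slope was 0.52 with the identifier range described below as a covariate (limma, adjusted p = 0.0423) and 0.25 without wild-type replicate 1. Over 21 alternatives it ran from 0.06, with the replicate block, to 0.63, and its adjusted p ran from 0.0423 to 0.998 and passed in 1. The Car2 slope was 0.47 without wild-type replicate 1 (limma, adjusted p = 0.0396), and over the alternatives it ran from 0.24 to 0.65, with an adjusted p of 0.0396 to 0.776 that also passed in 1. Car15 had a slope of 0.27 (adjusted p = 0.542), which was 0.06 without the 2 farthest arrays. Slc26a9 was dim, with a slope of 0.15 (adjusted p = 0.492). By contrast Slc9a2 had a slope of -0.02 (-0.15 to 0.12), Slc4a2 of 0.05 (-0.11 to 0.22) and Slc4a3 of -0.10 (-0.31 to 0.12). Differences between the slopes of these genes were not tested.

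**Figure D4:**
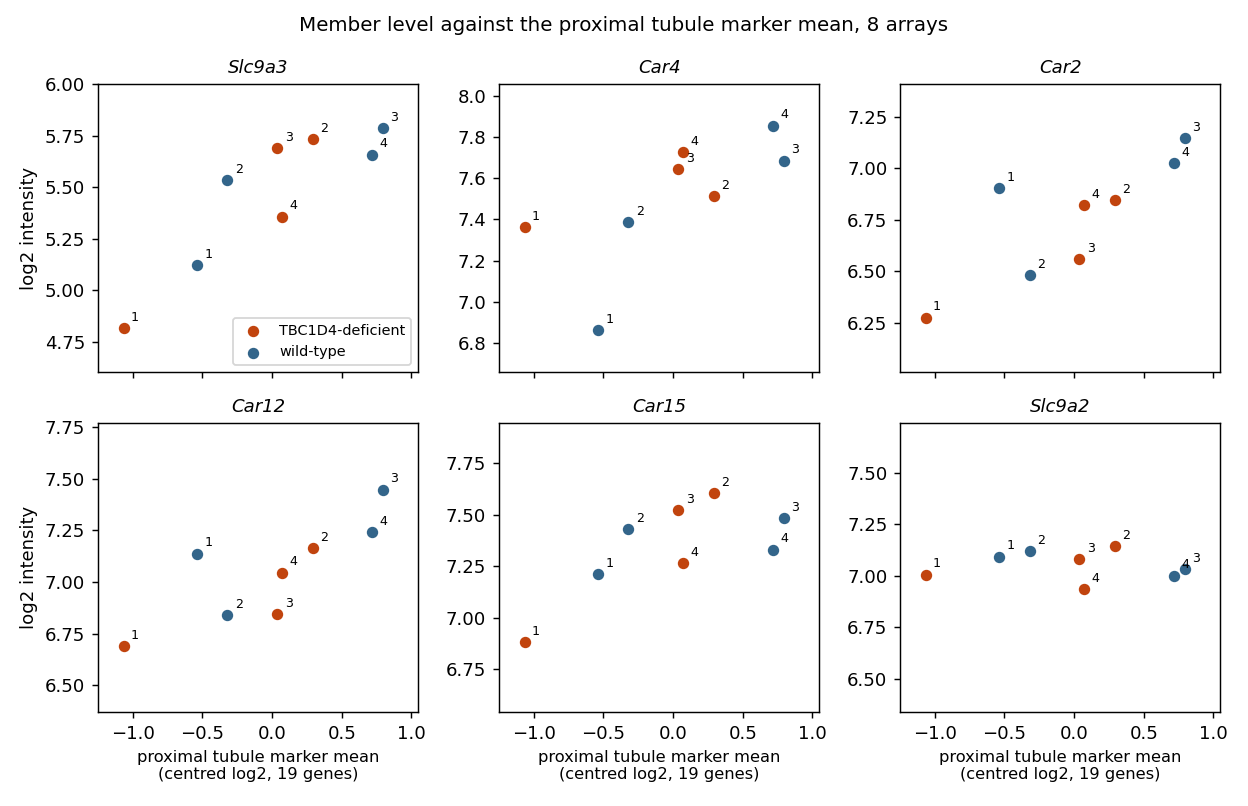
Log2 intensity of 6 members (vertical axis, of the same height in every panel) against the proximal tubule marker mean (horizontal axis, centred log2, 19 genes) in the 8 arrays; colours give the genotype and numbers the replicate. Slc9a3, Car2, Car12 and Car15 are lowest in TBC1D4-deficient replicate 1, Car4 is lowest in wild-type replicate 1, and Slc9a2 is level.

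Promoter windows are shown for Slc9a3, Car4 and Car12, which were among the members with the steepest proximal tubule slopes. No window was available for Car2 or Car3, with slopes of 0.34 and 0.78. The windows shown run from 250 bases before to 50 bases after the gene start (RefSeq, GRCm38.p6, plus strand). They lie at chr13:74121163-74121462 for Slc9a3, chr11:84957504-84957803 for Car4 and chr9:66713436-66713735 for Car12. Capitals mark matches on either strand to 4 motifs. GTTAAC is the half-site of hepatocyte nuclear factor 1 and TGTTTA the forkhead core. GGGCGG is the GC box, and the remaining motif is the TATA box, spelled TATAAA.
Slc9a3: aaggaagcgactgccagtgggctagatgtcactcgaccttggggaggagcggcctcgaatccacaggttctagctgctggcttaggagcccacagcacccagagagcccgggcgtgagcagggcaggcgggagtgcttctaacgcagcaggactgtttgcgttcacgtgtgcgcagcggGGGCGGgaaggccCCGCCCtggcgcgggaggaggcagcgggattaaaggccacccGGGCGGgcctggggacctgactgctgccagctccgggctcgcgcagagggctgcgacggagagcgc
Car4: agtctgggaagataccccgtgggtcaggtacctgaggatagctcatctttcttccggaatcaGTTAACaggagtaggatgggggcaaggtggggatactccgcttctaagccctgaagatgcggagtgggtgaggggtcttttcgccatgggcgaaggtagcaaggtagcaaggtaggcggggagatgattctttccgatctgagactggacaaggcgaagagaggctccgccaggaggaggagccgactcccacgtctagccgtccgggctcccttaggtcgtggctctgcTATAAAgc
Car12: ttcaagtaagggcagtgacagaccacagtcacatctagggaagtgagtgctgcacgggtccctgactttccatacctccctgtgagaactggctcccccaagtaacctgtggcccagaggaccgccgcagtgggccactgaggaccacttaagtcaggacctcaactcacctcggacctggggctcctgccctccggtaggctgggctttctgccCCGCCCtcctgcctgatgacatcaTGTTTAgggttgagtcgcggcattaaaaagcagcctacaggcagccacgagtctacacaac

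The GC box occurred 3 times in the Slc9a3 window and 1 time in that of Car12. The half-site of hepatocyte nuclear factor 1 and the letters of the TATA box stood in the Car4 window and the forkhead core in the Car12 window. The TATAAA match of Car4 begins at base 43 after the gene start, not before it. Of all 32851 promoter windows of this length, 3.05% held the hepatocyte nuclear factor 1 half-site, 13.4% the forkhead core, 35.7% the GC box and 13.6% the TATA box. The table held 30 windows for 24 of the 35 members, of which 3 held the half-site, 2 the forkhead core, 15 the GC box and 5 the TATA box. No 2 matches overlap in these 3 windows, and a match is a description of the letters only.

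Slopes on the means of 4 other marker lists gave no member past the threshold in limma. For intercalated cell markers, 4 of 35 members had an unadjusted p below 0.05 (11.4%, beside 5.13% of all probe sets), and at an adjusted p below 0.05 there were 0 members and 0.00434% of all probe sets. These were Slc26a7 (slope 0.999, 95% interval 0.39 to 1.61), Car12 (1.14, 0.32 to 1.95), Car2 (1.23, 0.20 to 2.26) and Car5b (0.81, 0.09 to 1.52), with adjusted p of 0.921 or 0.922. For thick ascending limb markers the count was 6 (17.1%, beside 7.95%), made up of Car12, Slc9a3, Car2, Slc4a10, Slc26a9 and Slc26a7. For endothelial markers it was 4 (11.4%, beside 4.82%), namely Slc9a3, Car15, Car2 and Car12. For connecting tubule and principal cell markers it was 3 (8.57%, beside 3.6%), of which Car5b and Slc26a6 had positive slopes and Slc4a5 a negative one (-1.10, 95% interval -1.82 to -0.38). Adjusted over all probe sets, 0 members passed for these 3 lists, beside 0.00868% of all probe sets for thick ascending limb and 0% for each of the others. Car2 and Car12 were among the members with an unadjusted p below 0.05 for 4 of the 5 lists. In each of these 4 lists TBC1D4-deficient replicate 1 had the lowest marker mean and wild-type replicate 3 the highest. The same 2 arrays were the extremes of Car2 and Car12, so the 4 lists do not count separately.

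Car2 and Car12 also split by a second number in the sample descriptions. Its meaning is not in the labels, and its values form an upper and a lower range. The upper range holds TBC1D4-deficient replicate 2 with wild-type replicates 1, 3 and 4, and the lower range holds the remaining 3 TBC1D4-deficient arrays with 1 wild-type array, so it is unbalanced between genotypes. In the upper range Car2 had 6.85 in the TBC1D4-deficient array and 6.90, 7.15 and 7.03 in the wild-type arrays. In the lower range it had 6.28, 6.56 and 6.82 in the TBC1D4-deficient arrays and 6.48 in the wild-type array. All 4 arrays of the upper range lay above all 4 of the lower range, and the means were 6.98 in the upper and 6.53 in the lower range. Car12 averaged 7.25 in the upper range and 6.86 in the lower one, again without overlap, and so did Slc9a7, at 5.58 in the upper and 5.40 in the lower range. Such a separation with the upper range higher was found in 3 of 35 members (8.57%) and in 1.52% of all probe sets. With the upper range lower it was found in 0 of 35 members and in 1.26% of all probe sets. The difference between ranges, fitted with genotype, was 0.42 for Car2 (95% interval 0.11 to 0.73) and 0.37 for Car12 (0.12 to 0.62). Both missed the threshold (limma, adjusted p = 0.988 each), as did all 35 members and all probe sets (0%). An unadjusted p below 0.05 was found for 5 members (14.3%) and 4.9% of all probe sets. Besides Car2 and Car12 these were Slc26a7 (0.32, 95% interval 0.12 to 0.51), Car5b (0.29, 0.09 to 0.49) and Slc4a2 (0.22, 0.06 to 0.38). Slc26a7, with the smallest p of the 35, overlapped between ranges. Slc9a7, which did not overlap, had 0.15 (-0.05 to 0.35).

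Within a range, the genotype differences of Car2 and Car12 lay nearer to 0 than over all arrays. For Car2 it was -0.18 in the upper range (1 TBC1D4-deficient and 3 wild-type arrays) and 0.07 in the lower range (3 TBC1D4-deficient and 1 wild-type array), against -0.26 over all arrays. For Car12 it was -0.11 in the upper and 0.02 in the lower range, against -0.23 over all arrays. For Car7 it was -0.29 in the upper and -0.11 in the lower range, against -0.25 over all arrays, so only the lower range lay nearer to 0. For Slc9a7 it was 0.03 in the upper and -0.16 in the lower range, against -0.14 over all arrays, so its sign turned in the upper range. These within-range values rest on 1 array of a genotype and carry no test.

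**Figure D5:**
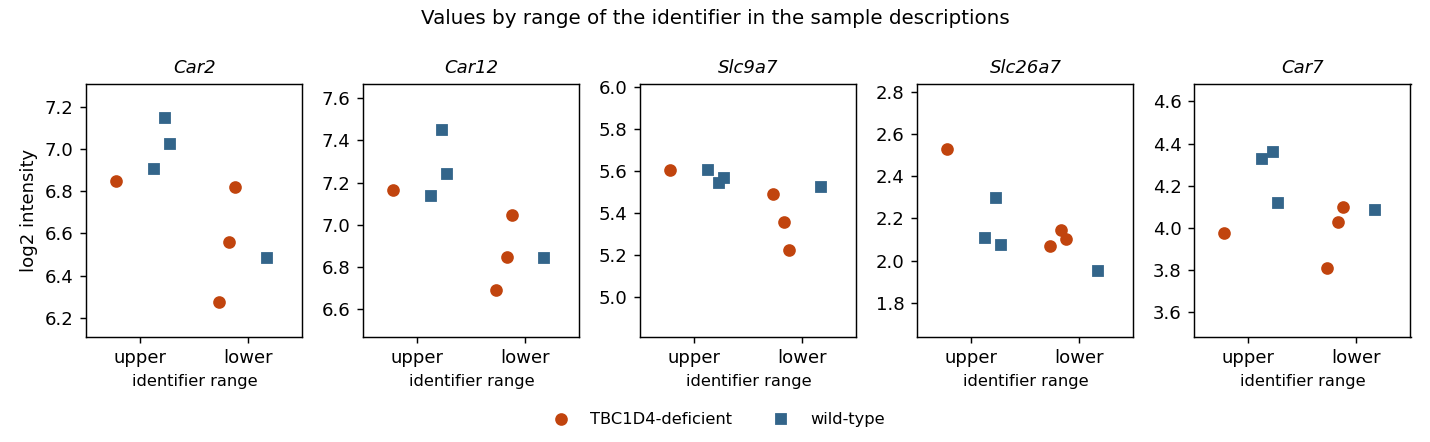
Log2 intensity (vertical axis, of the same height in every panel) of 5 members in the arrays of the upper and the lower identifier range; circles are TBC1D4-deficient and squares wild-type arrays. Car2, Car12 and Slc9a7 do not overlap between ranges, whereas Slc26a7 and Car7 do.

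Other genes of acid-base transport lay around 0 by genotype too, and 0 of 55 passed in limma, with 2 at an unadjusted p below 0.05, beside 2.9% of all probe sets. Of 22 subunits of the vacuolar proton pump, 11 were above and 11 below 0, with a median of -0.0017. Atp6v0d2 and Atp6v1g3, subunits typical of intercalated cells, averaged 6.56 and 5.38 in the TBC1D4-deficient arrays and 6.89 and 5.56 in the wild-type arrays, with differences of -0.33 (95% interval -0.62 to -0.04) and -0.18 (-0.44 to 0.09). Atp6v1b1, a subunit shared by intercalated cells and other distal cells, averaged 9.06 in the TBC1D4-deficient arrays and 8.92 in the wild-type arrays (difference 0.13, 0.0016 to 0.26), and Atp6v0a2, a widely expressed subunit, averaged 7.25 in the TBC1D4-deficient arrays and 7.12 in the wild-type arrays (0.13, -0.02 to 0.29). The 4 pump subunits with the smallest p thus lay on both sides of 0.

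Of 9 genes of ammonia handling and proton-potassium pumps, 5 were above and 4 below 0. The ammonia channels Rhcg and Rhbg differed by 0.10 (95% interval -0.05 to 0.25) and -0.25 (-0.75 to 0.25), Atp4a, the catalytic subunit of the gastric proton pump, by 0.12 and Slc38a3, a glutamine transporter, by 0.08. Of 21 partners, regulators and acid sensors, 8 were above and 13 below 0. The 4 with the smallest p were Ptk2b, a kinase that activates Slc9a3 on acid exposure, at -0.10, the Slc9a3 scaffold proteins Slc9a3r2 and Pdzd3 at -0.07 and -0.18, and Gpr4, a proton-sensing receptor, at -0.09. The 3 measured exchangers Slc9c1, Slc9b1 and Slc9b2, which the symbol rule left out, were dim and differed by -0.03, 0.03 and -0.04.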

How the data were processed

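The deposited values are linear intensities of 28371 probe sets on 8 arrays. Affymetrix Power Tools was used, per the submitters' processing notes; for its version, the summarisation and the normalization the sources used here give nothing. Array medians of 8.41 to 9.03 show a common scale, and forcing equal distributions would hide a shift of most genes. The number of arrays limits the precision.

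The intensities were taken to log2, with no pseudocount, filter or further normalization, and fitted in R 4.3.3 with limma 3.58.1, by lmFit and eBayes with 2-sided tests, over the 23039 probe sets with a gene symbol; threshold, Benjamini-Hochberg adjusted p of 0.05. Symbols came from the platform annotation, and all 35 gene identifiers matched RefSeq (GRCm38.p6). Slopes used genotype plus the mean of a marker list, each gene centred over 8 arrays. Values of every array are given for members with the smallest genotype p, the largest SD, or a known kidney role. For each list of related genes, the 4 with the smallest p are named. Members and lists were chosen with earlier results of these data known. Scripts were tested on simulated data.

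Alternatives covered filters, rows, normalization, pseudocount, priors, weights, blocks, covariates, marker summaries and each array left out.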

Additional observations from a re-analysis of the deposited data

Results flagged for a closer look

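In 5 of the 70 groups of 4 arrays formed by 35 genes and 2 genotypes, 1 array lay apart from the other 3 by Dixon's criterion, which chance meets in about 1 of 20 groups. The share over all probe sets was not taken, so the count is not read as a trait of these genes. All 5 genes were dim. Slc26a7 was high in TBC1D4-deficient replicate 2, at 2.53 with the next at 2.14. Slc26a5 was low in TBC1D4-deficient replicate 4, at 1.87 with the next at 1.99. Slc4a10 was low in TBC1D4-deficient replicate 1, at 1.96 with the next at 2.02. Car13 was low in wild-type replicate 1, at 2.69 with the next at 2.89. Slc26a6 was low in wild-type replicate 2, at 2.48 with the next at 2.64.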

How the results depend on the processing

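Of 25 alternatives to the genotype fit, the limit of a mean of at least 4 kept 17 members, and the other 18 were run under 24. In these runs 0 members passed in limma, with a lowest adjusted p of 0.997, and Tbc1d4 passed in all 25. The sign was the same under every alternative run for 11 members, of which Car7, Slc4a8 and Slc9a7 were run under all 25, and turned under at least 1 for 24. The differences within an identifier range are not among these alternatives. Of the 11, Slc9a7 and Car10 turned in the upper range and Slc4a5 in the lower range. The count above 0 was 23 with the endothelial marker mean as a covariate, and 6 of 17 among probe sets with a mean of at least 4, where 15 of 17 intervals lay inside 1.5-fold. Titles number the replicates 1 to 4 in both genotypes, and the labels do not say whether equal numbers mean a pair. Deviations of equally numbered arrays correlated at 0.40, -0.19, 0.04 and 0.01. For TBC1D4-deficient replicate 1 alone, the equally numbered wild-type array was the best match. These 4 values cannot decide whether arrays are paired. The replicate block gave 13 above 0, 0 past the threshold and 33 intervals inside 1.5-fold. Over the alternatives that kept all 35 members, the count inside 1.5-fold ran from 26, in arrays 9 to 12, to 34. It was 29 with the endothelial mean and 30 without TBC1D4-deficient replicate 2. For the proximal tubule slope, 1 member passed with a mean of at least 4, with probe sets of 1 symbol, with arrays centred on their median, with a trended robust prior and with no genotype term (Slc9a3 each time), 1 with the identifier range as a covariate (Car4), and 0 to 1 when 1 array was left out.

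Turned signs, with the log2 difference in each case, were as follows. Car3 stood at 0.0435 after quantile normalization, 0.0019 with a pseudocount of 8 and 0.0735 with array weights. With medians centred, Car3 stood at 0.0132, Slc26a5 at 0.00104 and Slc9a2 at 5.17e-05. In arrays 5 to 8, Car3 stood at 0.913, Slc26a2 at -0.00086, Slc26a6 at -0.00407, Slc26a7 at -0.00236, Slc26a8 at 0.0136, Slc4a11 at 0.0819, Slc4a2 at -0.00246 and Slc9a8 at 0.066. In arrays 9 to 12, Car11 stood at 0.0556, Car8 at 0.157, Car9 at -0.0311, Slc26a5 at 0.0116, Slc4a10 at 0.0149, Slc9a2 at 0.0282 and Slc9a9 at -0.0525. With the identifier range as a covariate, Car11 stood at 0.082, Car15 at 0.0273, Car5b at 0.0979 and Slc26a5 at 0.00866. With the proximal tubule mean, Car15 stood at 0.043, Car3 at 0.251 and Slc9a3 at 0.0363. With the endothelial mean, Car11 stood at 0.0452, Car12 at 0.0898, Car15 at 0.343, Car2 at 0.145, Car3 at 0.588, Car5b at 0.0261, Slc26a5 at 0.0108, Slc26a9 at 0.0771, Slc9a2 at 0.0153 and Slc9a3 at 0.444. With the intercalated cell mean, added after the data were seen as was the test of the identifier range, Car11 stood at 0.0653, Car15 at 0.029 and Car5b at 0.0437. The cause was not tested.

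With 1 array left out the difference ran from -0.131 to 0.0962 for Car11, -0.141 to 0.1001 for Car15, -0.346 to 0.397 for Car3, -0.082 to 0.249 for Car4, -0.147 to 0.0083 for Car5b, -0.126 to 0.0506 for Car8, -0.0229 to 0.107 for Slc26a11, -0.0387 to 0.0102 for Slc26a5, -0.00284 to 0.167 for Slc26a7, -0.0379 to 0.0667 for Slc4a2, -0.0536 to 0.131 for Slc4a3, -0.0548 to 0.0153 for Slc9a2, -0.2599 to 0.0688 for Slc9a3 and -0.0513 to 0.146 for Slc9a9.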
